A study of Mus musculus with 28 samples.

Results

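The colony-stimulating factors and their receptors were followed through all 7 groups of a mouse lung cancer study. The rule named 10 genes, 5 ligands (Csf1, Csf2, Csf3, Il34 and Kitl) and 5 receptors (Csf1r, Csf2ra, Csf2rb, Csf3r and Kit), and took each row of the expression table that carries such a symbol. A row was found for 9 of the 10, 4 ligands and 5 receptors, among 18509 rows with a symbol and 43143 rows in all. Csf2, the gene of GM-CSF, was not analysed here.

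3LL (Lewis lung carcinoma) is a mouse lung cancer line that grows in immunocompetent C57BL/6 mice. KEAP1 is the adaptor that marks the transcription factor NRF2 for degradation, so that its loss activates NRF2. RNA was sequenced from cultured WT, KEAP1-KO and DKO cells and from tumors of these cells, with 4 libraries in each of the 7 groups, 12 of cells and 16 of tumors. KEAP1-KO cells were grown from a single colony and carry a homozygous 1 bp insertion in exon 2 of Keap1; more than 1 such line was made, and the sources used here do not say which line each library came from. DKO cells were made from KEAP1-KO cells by editing exon 5 of Nrf2 (Nfe2l2), so they also carry the Keap1 insertion. Both tumors of a mouse lay under the skin of the flanks of an albino C57BL/6 male of 6 weeks and were taken on day 10. In Experiment A the mice bore WT cells on the left and KEAP1-KO cells on the right, and in Experiment B KEAP1-KO cells on the left and DKO cells on the right, so genotype and flank cannot be told apart, and which libraries share a mouse is not given. What differs between clones by chance cannot be told apart from the edited gene. The sources do not say whether libraries of a group came from separate cultures, so the p-values for cells measure the spread between these libraries only.

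Colony-stimulating factors are secreted or cell-bound cytokines that keep blood cell lineages alive and dividing. CSF1 and IL-34 share the receptor tyrosine kinase CSF1R, on which macrophages depend. GM-CSF binds the chain encoded by Csf2ra and signals through the common beta chain of Csf2rb, which IL-3 and IL-5 also use. G-CSF (Csf3) binds CSF3R on neutrophils and their precursors, and stem cell factor (Kitl) binds KIT, a receptor of mast cells, melanocytes and blood progenitors. In tumors, cancer cells and stroma commonly make the ligands and infiltrating myeloid cells carry most of the receptors.

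The levels are given as log2(normalized count + 4), the scale of the deposited table, on which 2 means no reads. Depth was between 4222372 and 7524280 reads per library, and 3 reads were worth between 2.43 and 3.47 normalized counts. Keap1 was at 9.45 ± 0.09 in WT cells, 7.59 ± 0.07 in KEAP1-KO cells and 7.35 ± 0.08 in DKO cells (mean ± SD, n = 4 each). Nqo1, a target of NRF2, was at 9.01 ± 0.11, 12.45 ± 0.11 and 6.77 ± 0.09 in the same order, and the Nfe2l2 row, 1 transcript, overlapped between these groups. In tumors Keap1 was likewise highest in WT and Nqo1 highest in KEAP1-KO, so no library stood against its label by these genes. The 15 leukocyte markers listed for this work, led by Ptprc (CD45), averaged 2.58 to 2.86 in the cell groups and 5.81 to 7.79 in the tumor groups.

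The table holds single transcripts for most genes, and 8 of the 9 rows are such transcripts. Those of Csf1, Csf2ra, Csf2rb and Kit are annotated as retained introns, those of Il34, Kitl and Csf3r as processed transcripts without a coding sequence, that of Csf1r as a short coding transcript of 416 bases, and Csf3 alone is a gene row. On the mouse chromosomes Csf1 lies on 3, Csf3 on 11, Il34 on 8, Kitl on 10, Csf1r on 18, Csf2ra on 19, Csf2rb on 15, Csf3r on 4 and Kit on 5. Reads of full-length mRNA can be shared out among such rows by the quantifier, and retained introns can also follow unspliced RNA, so a row's level is not the level of the whole gene. A further 11 rows of these genes carry no symbol.

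Upstream sequence is shown for the 3 receptors whose promoters were searched, Csf2ra, Csf3r and Kit. Csf2ra and Csf3r fell in Experiment A and rose in Experiment B, while Kit was not called in Experiment B. No window was searched for Csf1r and Csf2rb, which also fell and then rose. Each run below is the 250 bases before the gene's start in RefSeq (GRCm38.p6), with matches to GAGGAA, the core of the site of the myeloid factor PU.1, in capitals. Csf2ra, chr19:61228419-61228668 on the minus strand, holds 2 matches, whose first bases are 14 and 8 bases before the start.
Csf2ra: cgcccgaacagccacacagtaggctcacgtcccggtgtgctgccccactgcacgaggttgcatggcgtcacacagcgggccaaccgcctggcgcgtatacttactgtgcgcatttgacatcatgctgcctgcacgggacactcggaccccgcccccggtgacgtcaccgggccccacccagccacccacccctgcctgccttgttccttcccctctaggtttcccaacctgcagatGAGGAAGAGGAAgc
Csf3r, chr4:126024409-126024658 on the plus strand, holds 1 match, 86 bases before the start.
Csf3r: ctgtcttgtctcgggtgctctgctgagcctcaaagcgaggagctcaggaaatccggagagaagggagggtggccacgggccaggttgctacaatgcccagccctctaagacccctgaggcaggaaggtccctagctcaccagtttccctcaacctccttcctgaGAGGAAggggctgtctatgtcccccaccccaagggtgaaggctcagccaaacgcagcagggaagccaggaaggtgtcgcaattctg
Kit, chr5:75574737-75574986 on the plus strand, holds 1 match, 223 bases before the start.
Kit: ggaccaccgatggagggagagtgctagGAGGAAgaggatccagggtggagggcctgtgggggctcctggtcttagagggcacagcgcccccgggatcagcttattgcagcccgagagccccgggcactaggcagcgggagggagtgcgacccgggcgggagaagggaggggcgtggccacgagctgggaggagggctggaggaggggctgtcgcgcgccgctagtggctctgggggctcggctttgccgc

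The match was searched on both strands, and 23.3% of the 32851 promoter windows of this length held at least 1. Promoters were matched by symbol for 6 of the 10 genes. Windows of Csf1, Csf2 and Kitl held no GAGGAA, and none of the 6 held TGACNNNGC, the core of the antioxidant response element that NRF2 binds, which was found in 10.2% of all windows. TGANTCA, the AP-1 site, was in none of the 6 and in 6.75% of all windows, and TTGCNNAA, the C/EBP site, was in that of Csf2 alone and in 9.56% of all. No match says only that these letters are not in this window.

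**Figure D1:**
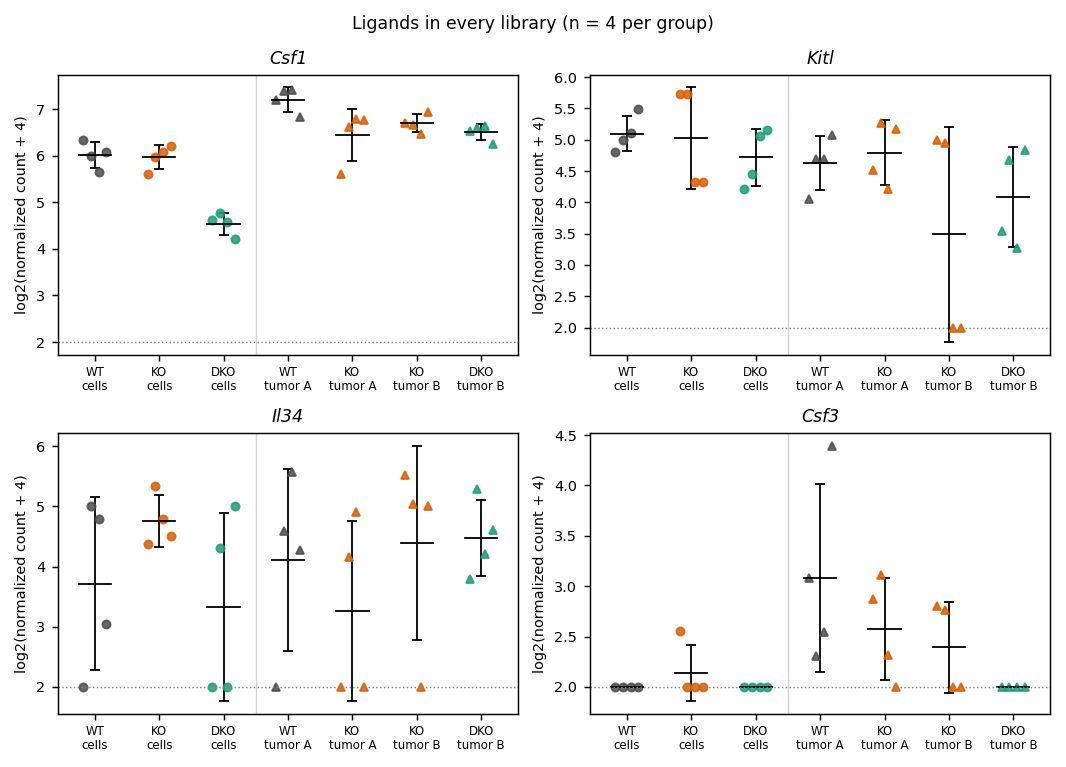
Csf1, Kitl, Il34 and Csf3 as log2(normalized count + 4) in the 28 libraries (points; circles are cells, triangles tumors; bars are mean and SD, n = 4; the dotted line at 2 is 0 reads). The 4 DKO cell libraries of Csf1 sit between 4.21 and 4.76, below all other cell libraries, while the other ligands overlap between the cell groups.

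The first question was which ligands the cancer cells made in culture and whether the edits changed them. Csf1 was detected in all 12 cell libraries and was lower in DKO cells than in both other lines, the only ligand called among the rows that carry a symbol. In WT cells Csf1 stood at 6.33, 5.99, 5.66 and 6.07, and in KEAP1-KO cells at 5.60, 5.97, 6.09 and 6.21. In DKO cells it stood at 4.62, 4.76, 4.58 and 4.21. The WT and KEAP1-KO libraries overlapped, and the 4 DKO libraries lay below all 8 of them. In reads, Csf1 had 43 to 67 per WT library, 48 to 78 per KEAP1-KO library and 17 to 22 per DKO library.

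Differences were tested with limma across all rows tested, with Benjamini-Hochberg adjustment. Csf1 fell by 1.42 on the log2 scale from KEAP1-KO to DKO cells (SE 0.18, adjusted p = 0.000256), a ratio of mean normalized counts of 0.329. Against WT cells it fell by 1.47 (SE 0.18, adjusted p = 0.000104). It was the 1 lower member of 3 ligands tested in each case, where 4.85% and 9.2% of all 29744 rows were called lower. Between KEAP1-KO and WT cells none of the 3 ligands was called, at an adjusted or an unadjusted p under 0.05, while 15.5% of all rows were. The Csf1 difference there was -0.05 with a 95% interval of -0.45 to 0.35. A second Csf1 row, a coding transcript without a symbol, stood at 4.70 ± 0.26 in WT, 4.33 ± 0.28 in KEAP1-KO and 3.78 ± 0.54 in DKO cells (n = 4). That row was called lower in DKO than in WT cells by 0.91 (SE 0.27, adjusted p = 0.0364) but not against KEAP1-KO cells, where it differed by -0.54 (adjusted p = 0.304). With all 3 rows of Csf1 added, the fall from KEAP1-KO to DKO cells was 1.26 (adjusted p = 0.000764).

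Kitl, which encodes stem cell factor, was present in the cells of each genotype and not called between them. Kitl stood at 4.80, 5.0025, 5.10 and 5.48 in WT cells, at 5.73, 5.73, 4.32 and 4.33 in KEAP1-KO cells, and at 4.22, 4.45, 5.06 and 5.15 in DKO cells. The 3 groups overlapped, and the KEAP1-KO libraries fell into a high and a low pair. The difference from KEAP1-KO to DKO cells was -0.31, with an interval of -1.09 to 0.48. Neither of 2 further Kitl rows was called, although 1 of them, listed at 0 in 2 WT libraries and 1 DKO library, had means of 3.70 in WT, 5.61 in KEAP1-KO and 4.1003 in DKO cells.

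Il34, the second ligand of CSF1R, varied widely between libraries of the WT and DKO groups. The Il34 row was listed at 0 in 1 WT library and 2 DKO libraries, while the others reached 5.35. WT cells gave 2, 5.0025, 4.80 and 3.05, KEAP1-KO cells 4.37, 5.35, 4.79 and 4.51, and DKO cells 2, 4.30, 2 and 5.01. In the DKO group the libraries above 0 had 15 and 33 reads, and a 0 beside them can be an estimate that went to another transcript. A second Il34 row, without a symbol, was above 0 in all cell libraries and rose in KEAP1-KO cells by 0.96 (SE 0.21, adjusted p = 0.00686) from a WT level of 3.83 ± 0.41 to 4.80 ± 0.15 (n = 4), with no overlap. In DKO cells that row stood at 4.58 ± 0.09, above WT cells by 0.75 (SE 0.21, adjusted p = 0.0268). With both rows added, the difference from WT to KEAP1-KO cells was 0.998 (adjusted p = 0.0888).

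Csf3, which encodes the neutrophil factor G-CSF, had no reads in 11 of the 12 cell libraries and 2 reads in the other. A count of 0 allows up to 3 reads per library, worth 2.56 to 3.42 normalized counts in the cell libraries. Csf3 did not pass the filter of 5 normalized counts in 4 libraries and was not tested.

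Per kilobase of the listed transcript, Kitl had a level of 82.7 ± 19.3 normalized counts in WT cells, Csf1 28.4 ± 5.68 and Il34 20.8 ± 20.7 (SD, n = 4). In KEAP1-KO cells the levels were 87.6 ± 51.2 for Kitl, 27.4 ± 5.01 for Csf1 and 35.5 ± 13.3 for Il34, and in DKO cells 62.8 ± 22.5, 9.04 ± 1.67 and 16.3 ± 20.2. With Il34 listed at 0 in 2 DKO libraries and 1 WT library, no order of Csf1 and Il34 was read from these means. These are levels of the listed transcripts only.

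**Figure D2:**
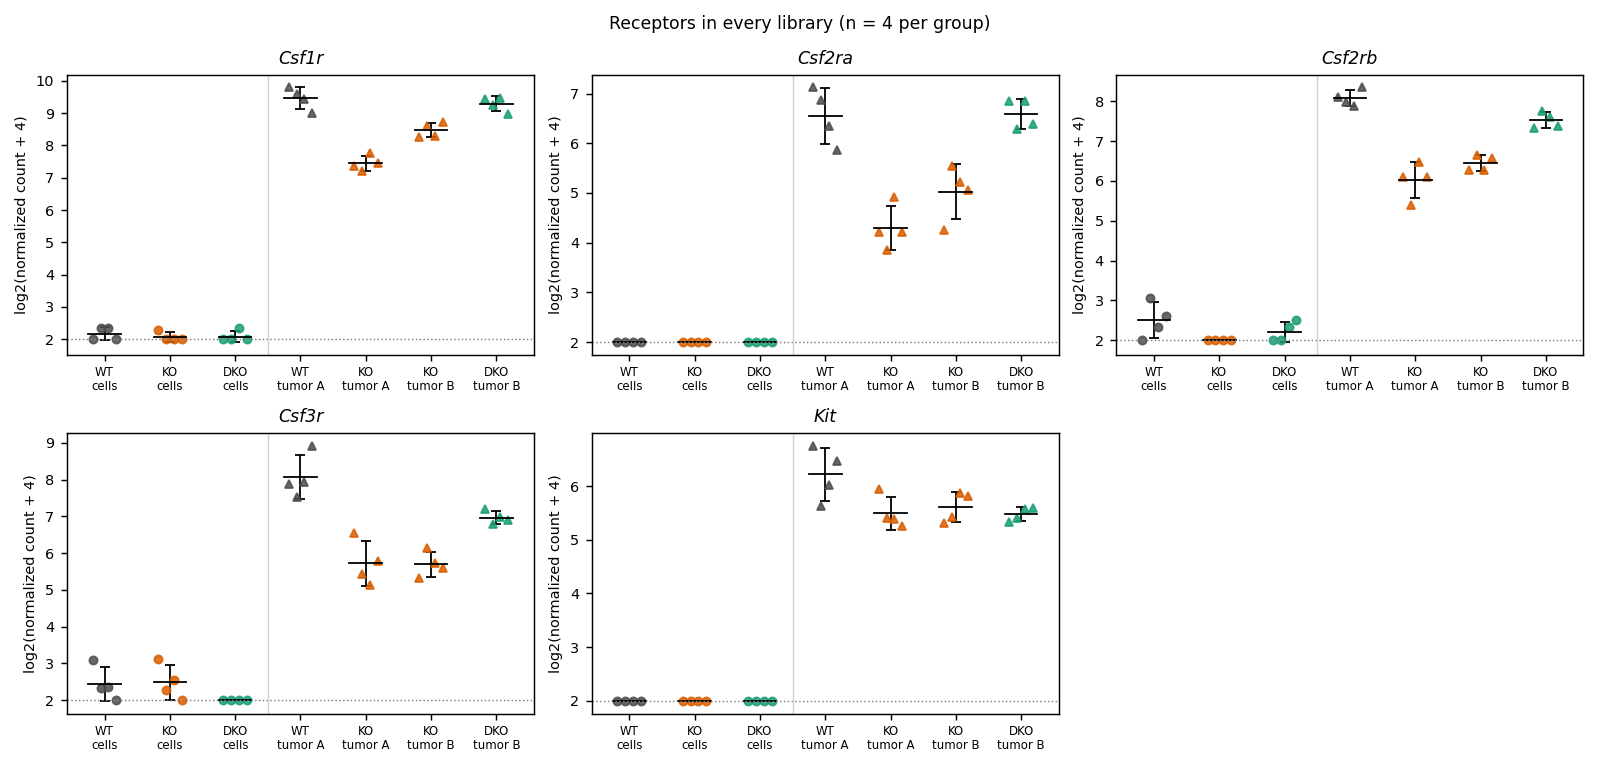
Csf1r, Csf2ra, Csf2rb, Csf3r and Kit as log2(normalized count + 4) in the 28 libraries (points; circles are cells, triangles tumors; bars are mean and SD, n = 4; the dotted line at 2 is 0 reads). All 5 receptors lie at or near 2 in the 12 cell libraries, and every tumor library lies above them.

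The receptors were nearly undetected in culture. Of their 60 values in cell libraries, 45 were 0 and the highest was 5 reads, for Csf3r in 1 KEAP1-KO library. Csf2ra and Kit had no read in any of the 12 cell libraries, Csf1r 0 or 1, Csf2rb up to 4, and Csf3r up to 5. None of the 5 passed the filter in cells, so none could be tested between genotypes there. Tumors of every genotype held all 5.

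The receptors passed the filter in the fit of all 28 libraries through the tumors alone, so their calls against cells are a description. In WT tumors against WT cells all 5 receptors and Csf1 were called higher, in a comparison where 24.7% of all 37246 rows were. The same 6 genes were called higher in DKO tumors against DKO cells, where 27.6% of rows were, and in the KEAP1-KO tumors, taken over both experiments, against their cells, where 27% were. Csf1r, at 713 ± 160 normalized counts (SD, n = 4) in WT tumors and 0.54 ± 0.62 in WT cells, did not overlap between them, and its log2 difference was set by the pseudocount, at 7.28 with the deposited 4 and 9.83 with 0.4. Csf2ra was at least 29.0-fold higher in WT tumors than in WT cells, set at the floor of 3 reads per library, and Kit at least 22.4-fold higher. For the mean of the KEAP1-KO tumors of both experiments these bounds were at least 8.52-fold for Csf2ra and at least 16-fold for Kit. Within it Csf2ra averaged 16.4 normalized counts in Experiment A and 30.2 in Experiment B, so the bound is lower for Experiment A alone. In DKO tumors the bounds were at least 31.9-fold and at least 13.8-fold. All 15 leukocyte markers were also called higher in the tumors of each genotype than in the cells, with a median difference of 4.82 for WT. Of these markers only 3 passed the filter in cells. For the rest the calls are a description too, and the median can depend on the pseudocount. In bulk samples like these, fewer cells of a type and less RNA per cell cannot be told apart.

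Csf1, in the row that carries the symbol, was higher in tumors than in cells of each genotype. It rose by 1.19 (SE 0.21, adjusted p = 4.76e-05) in WT and by 1.97 (SE 0.21, adjusted p = 1.84e-08) in DKO, against medians over all rows of 0.20 and 0.23. In KEAP1-KO it rose by 0.60 (SE 0.18, adjusted p = 0.00877) against a median of 0.17, and with each library centred on its median the difference was 0.35 (adjusted p = 0.142). Without replicate 1 of the KEAP1-KO cells it was 0.48 (adjusted p = 0.0535). The coding Csf1 row was called in none of the 3, with differences of 0.73 (adjusted p = 0.081) in WT, 0.61 (adjusted p = 0.0829) in KEAP1-KO and 0.25 (adjusted p = 0.57) in DKO. Kitl and Il34 were not called in any of these comparisons, with Kitl differences of -0.47 in WT, -0.89 in KEAP1-KO and -0.64 in DKO.

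The next question was what the tumors' receptors did when KEAP1 was lost. In Experiment A all 5 receptors fell in KEAP1-KO tumors against WT tumors, 4 of them by more than 2 on the log2 scale, and Kit by less. Csf1 fell with them, so 6 of 8 members tested were lower, where 7.49% of all 34215 rows were, and 20.6% of the rows with a symbol were called in either direction. All 15 leukocyte markers were called lower as well, with a median of -1.99 beside -2.06 for the receptors and -0.03 for all rows. Of the macrophage markers 14 of 16 were lower, and the summed normalized counts of that list were between 6955 and 9130 in WT tumors and between 3124 and 3834 in KEAP1-KO tumors. The summed counts of the leukocyte list were between 4276 and 5374 in WT tumors and between 1307 and 1420 in KEAP1-KO tumors, with no marker at 0 throughout a group. Fibroblast markers, of which 3 of 11 tested were lower, summed to between 5083 and 12703 in WT and between 2080 and 5057 in KEAP1-KO tumors, and NK cell markers, all 4 tested of which were lower, to 78.1 to 117 and 0 to 13.5. Sums were also lower without overlap for dendritic cell markers, 4 of 9 lower (574 to 799 against 321 to 389), adipocyte markers, 2 of 4 lower (32.9 to 72.8 against 16.7 to 25.3), and T cell markers, 1 of 4 lower (40.7 to 103 against 28.02 to 31.1). B cell markers, of which 3 had a row and 1 was higher, went the other way (24.6 to 76.2 against 128 to 156). Cultured cells showed this as well, with sums of 27.0 to 31.9 in WT and 142 to 179 in KEAP1-KO cells. The B cell sum is therefore not read as a level of B cells in tumors. The part of these other cell types in the receptor differences was not tested.

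Csf1r, the receptor of CSF1 and IL-34, stood at 9.79, 9.60, 9.44 and 8.99 in WT tumors and at 7.37, 7.21, 7.75 and 7.45 in KEAP1-KO tumors. The lowest WT tumor was above the highest KEAP1-KO tumor. Csf1r fell by 2.01 (SE 0.17, adjusted p = 7.32e-07), a ratio of mean counts of 0.241. Adgre1, the F4/80 antigen of macrophages, went from 8.17 to 6.31 in mean level over the same groups.

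Csf2ra, the chain that binds GM-CSF, stood at 7.13, 6.87, 6.35 and 5.87 in WT tumors and at 4.21, 3.85, 4.91 and 4.22 in KEAP1-KO tumors. The groups did not overlap, and Csf2ra fell by 2.26 (SE 0.31, adjusted p = 0.000105). Csf2rb, the shared signalling chain, stood at 8.10, 7.98, 7.88 and 8.35 in WT tumors and at 6.10, 5.40, 6.48 and 6.09 in KEAP1-KO tumors. It also fell without overlap, by 2.06 (SE 0.19, adjusted p = 1.81e-06). Csf2rb2, a near-identical neighbour of Csf2rb that serves the IL-3 receptor of mice, went from 6.63 ± 0.17 to 5.05 ± 0.49 (n = 4), and reads of the pair may be split between their rows.

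Csf3r, the receptor of G-CSF, stood at 7.89, 7.52, 7.92 and 8.91 in WT tumors and at 6.56, 5.44, 5.13 and 5.80 in KEAP1-KO tumors. The groups did not overlap, and Csf3r fell by 2.33 (SE 0.30, adjusted p = 5.64e-05), a ratio of mean counts of 0.187. Of 9 neutrophil markers with a row 5 were lower and 4 not called. Their summed counts overlapped between the groups, at 594 to 1885 in WT tumors and 494 to 959 in KEAP1-KO tumors, and Ly6g, which defines the list, was not analysed here. The part of neutrophils in the Csf3r difference was not tested.

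Kit, the receptor of stem cell factor, moved least. It stood at 6.75, 5.64, 6.03 and 6.46 in WT tumors and at 5.95, 5.40, 5.38 and 5.25 in KEAP1-KO tumors, and the groups overlapped. Kit fell by 0.72 (SE 0.22, adjusted p = 0.0428), and the adjusted p ran from 0.00985 to 0.139 over the alternatives, past 0.05 without WT tumor replicates 1, 3 or 4, or without KEAP1-KO tumor replicates 2, 3 or 4. The call was also lost with no filter, with quantile normalization, with median centring and with only the groups compared. Of 5 mast cell markers tested 4 were lower, and Cpa3, a mast cell protease, went from 5.15 ± 0.63 to 3.39 ± 0.84 (n = 4). Their summed counts did not overlap, at 218 to 487 in WT and 66.2 to 112 in KEAP1-KO tumors, and their part in the Kit difference was not tested.

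Among the ligands in Experiment A, Csf1 stood at 7.19, 7.38, 7.41 and 6.84 in WT tumors and at 5.60, 6.63, 6.78 and 6.77 in KEAP1-KO tumors. The groups did not overlap, by a margin of less than 0.1, and replicate 1 of the KEAP1-KO tumors was far below the others. Csf1 fell by 0.76 (SE 0.22, adjusted p = 0.0334), and without that tumor by 0.48 (adjusted p = 0.0604). The call was also lost without WT tumor replicates 1, 2 or 3, with adjusted p up to 0.0932, and with only the groups compared (0.106), and it was 0.0599 with the replicate number as a block. With all Csf1 rows added the fall was 0.73 (adjusted p = 0.00976). Kitl differed by 0.16 (interval -1.20 to 1.52) and Il34 by -0.84 (interval -2.68 to 1.002), and neither was called. Csf3 had 5, 1, 2 and 20 reads in the WT tumors and 3, 4, 1 and 0 in the KEAP1-KO tumors, too few to test.

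**Figure D3:**
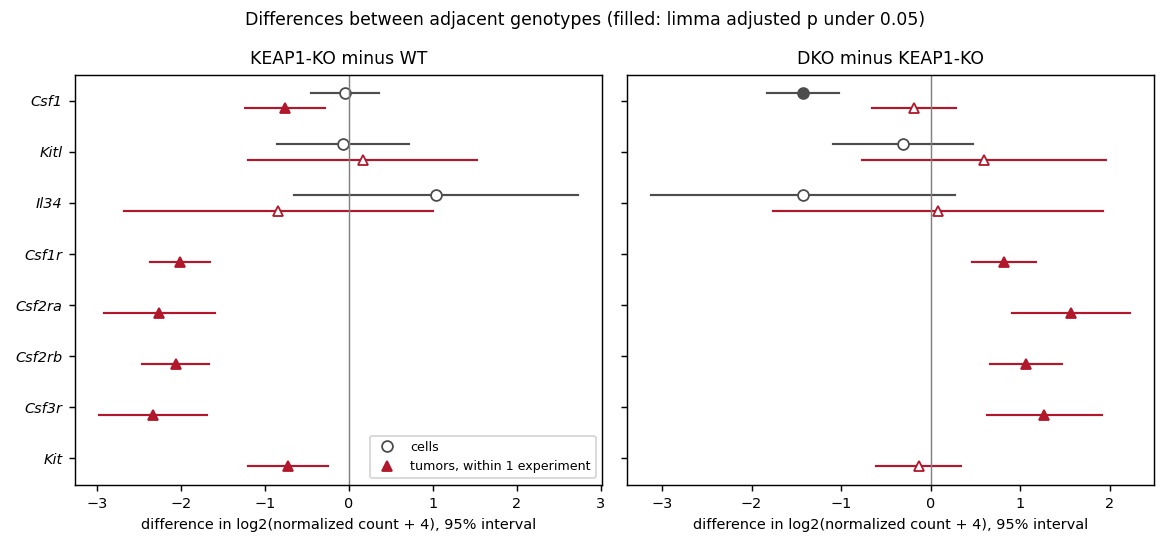
Difference in log2(normalized count + 4) between adjacent genotypes for 8 members, with 95% intervals (grey circles, cells; red triangles, tumors within 1 experiment; filled where the limma adjusted p is under 0.05; receptors could not be tested in cells). The 5 receptors lie left of 0 for KEAP1-KO minus WT, and 4 of them right of 0 for DKO minus KEAP1-KO, with Kit at -0.13.

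Experiment B asked what happened to the receptors when NRF2 was also edited. In DKO tumors 4 of the 5 receptors rose against KEAP1-KO tumors, Csf1r, Csf2ra, Csf2rb and Csf3r, while Kit and the 3 ligands tested were not called. Of all 34215 rows 4.22% were called higher. The median of the receptors was 1.07 beside 0.99 for the leukocyte markers, of which 14 of 15 were called higher and 1 lower, and 0 for all rows. Of the macrophage markers 6 of 16 were higher and 10 not called. Summed counts ran from 1839 to 2328 in KEAP1-KO and from 3059 to 4701 in DKO tumors for the leukocyte list, and from 4937 to 5512 and from 6351 to 8042 for the macrophage list. Other cell types moved as well: fibroblast markers, 4 of 11 higher, summed to between 3085 and 3808 in KEAP1-KO and between 11021 and 15329 in DKO tumors. NK cell markers, 3 of 4 higher, went from 2.99 to 16.8 up to 39.2 to 88.2, and skeletal muscle markers, 2 of 5 higher, overlapped at 72.8 to 284 and 84.4 to 1611. Endothelial markers went the other way, 3 of 11 lower, with sums of 1562 to 2087 in KEAP1-KO and 1361 to 1554 in DKO tumors, which did not overlap. Dendritic cell sums (374 to 460 against 471 to 642, 2 of 9 higher and 1 lower) and adipocyte sums (17.96 to 22.3 against 36.2 to 47.8, 1 of 4 higher) were higher in DKO tumors without overlap. The part of these cells in the receptor differences was not tested.

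Csf1r stood at 8.27, 8.59, 8.30 and 8.73 in KEAP1-KO tumors and at 9.45, 9.25, 9.47 and 8.98 in DKO tumors. Each DKO tumor lay above each KEAP1-KO tumor, and Csf1r rose by 0.82 (SE 0.17, adjusted p = 0.00525). Csf2ra stood at 4.25, 5.55, 5.23 and 5.06 and then at 6.84, 6.29, 6.85 and 6.38. It rose by 1.57 (SE 0.31, adjusted p = 0.00389), the largest rise of the 5, without overlap.

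Csf2rb stood at 6.28, 6.66, 6.29 and 6.58 in KEAP1-KO tumors and at 7.34, 7.76, 7.61 and 7.37 in DKO tumors. It rose by 1.07 (SE 0.19, adjusted p = 0.00156), and Csf2rb2 went from 5.67 ± 0.26 to 6.37 ± 0.13 (n = 4). Csf3r stood at 5.32, 6.15, 5.72 and 5.59 and then at 7.19, 6.78, 6.99 and 6.90, without overlap. Csf3r rose by 1.27 (SE 0.30, adjusted p = 0.0133), while 2 of 9 neutrophil markers were called higher and their sums overlapped, at 387 to 1291 and 559 to 901.

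Kit was level in Experiment B. It stood at 5.32, 5.43, 5.88 and 5.81 in KEAP1-KO tumors and at 5.33, 5.40, 5.58 and 5.60 in DKO tumors. The difference was -0.13 with an interval of -0.61 to 0.34, which does not reach the rise of 1.07 that Csf2rb showed. Of 5 mast cell markers tested none was called, at a median of -0.17, and Cpa3 stood at 4.73 ± 0.55 and 4.48 ± 0.33 (n = 4). The mast cell sums overlapped, at 76.8 to 167 and 83.3 to 192.

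Csf1 stood at 6.71, 6.67, 6.46 and 6.94 in the KEAP1-KO tumors here and at 6.54, 6.60, 6.65 and 6.26 in DKO tumors. The groups overlapped and differed by -0.19 (interval -0.66 to 0.29). The second Csf1 row, the coding transcript, fell in DKO tumors by 1.18 (SE 0.35, adjusted p = 0.0489) from 5.21 ± 0.13 to 4.03 ± 0.89 (n = 4), and with all Csf1 rows added the difference was -0.35 (adjusted p = 0.276). Kitl was listed at 0 in 2 KEAP1-KO tumors, which stood at 4.997, 4.95, 2 and 2, beside 3.54, 4.68, 3.27 and 4.84 in DKO tumors. Il34 was listed at 0 in 1 of these KEAP1-KO tumors and overlapped between the groups. Csf3 had 3, 3, 0 and 0 reads in the KEAP1-KO tumors and 0 in each of the 4 DKO tumors, where 0 allows up to 3 reads per library.

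The KEAP1-KO tumors of the 2 experiments share a genotype but came from different mice and opposite flanks. Between them 0.152% of all rows were called higher in Experiment B, and Csf1r was 1 of these 52 rows. It was higher by 1.02 (SE 0.17, adjusted p = 0.0323), without overlap, although the call was lost in 5 of 8 fits with 1 of these tumors left out (adjusted p up to 0.131). The other 4 receptors were not called, with differences of 0.73 for Csf2ra, 0.43 for Csf2rb, -0.03 for Csf3r and 0.11 for Kit. The leukocyte mean was also higher, at 6.45 ± 0.11 against 5.81 ± 0.08 (n = 4). Csf1r levels of different experiments, and those of leukocyte markers, thus differed within 1 genotype.

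Across experiments, DKO tumors were set beside WT tumors, a comparison in which genotype and experiment cannot be told apart. Csf3r was lower in DKO tumors by 1.10 (SE 0.30, adjusted p = 0.0281) and Kit by 0.74 (SE 0.22, adjusted p = 0.0433), 2 of 8 members, where 5.99% of rows were called lower. Both calls changed when single tumors were left out: that of Csf3r was lost without WT tumor replicate 4 or DKO tumor replicates 2, 3 or 4 (adjusted p up to 0.0834), and that of Kit without WT tumor replicates 1, 3 or 4 or any single DKO tumor (adjusted p up to 0.134). Of 9 neutrophil markers tested 5 were lower and 1 higher in DKO tumors, at a median of -1.05. Of 5 mast cell markers tested 1 was lower, at a median of -0.61. The part of these cells in the Csf3r and Kit differences was not tested. Csf1r differed by -0.17 (interval -0.53 to 0.19) and Csf2ra by 0.04 (interval -0.62 to 0.70). Csf2rb and Csf1 did not overlap between these groups but were not called, with differences of -0.56 (adjusted p = 0.074) and -0.70 (adjusted p = 0.0592). The coding Csf1 row differed by -1.39, lower in DKO tumors without overlap (adjusted p = 0.018).

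The order of the 4 tumor groups differed between receptors. Csf1r ran from WT to DKO, which overlapped, to the KEAP1-KO group of Experiment B and then that of Experiment A, each separate from the next. Csf2ra was highest in DKO and WT tumors, which overlapped, and Csf2rb and Csf3r in WT tumors, which lay apart from DKO tumors. The KEAP1-KO groups overlapped for Csf2ra, Csf2rb and Csf3r, and for Kit all neighbouring tumor groups overlapped.

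Ligand levels in culture were then set beside receptor levels in the tumors of the same lines. Csf1 in culture averaged 6.01 ± 0.28 in WT, 5.97 ± 0.26 in KEAP1-KO and 4.54 ± 0.23 in DKO cells (n = 4 each). Csf1r in tumors averaged 9.46 ± 0.34 for WT, 7.45 ± 0.23 and 8.47 ± 0.22 for KEAP1-KO and 9.29 ± 0.23 for DKO. The line with the least Csf1 in culture thus gave tumors with Csf1r above both KEAP1-KO groups, and the WT and KEAP1-KO lines, whose Csf1 overlapped in culture, gave tumors whose Csf1r did not overlap. With 3 genotypes no correlation was computed. Within tumors, Csf1 in the DKO group (6.51 ± 0.17) overlapped that of both KEAP1-KO groups (6.45 ± 0.57 and 6.70 ± 0.20). The change of this Csf1 row from KEAP1-KO to DKO differed between tumors and cells by 1.24 (SE 0.30, interaction, adjusted p = 0.0152), where 2.12% of rows were called higher. The second Csf1 row, the coding transcript, went the other way, with an interaction of -0.63 (SE 0.46, adjusted p = 0.617), and with all Csf1 rows added it was 0.91 (adjusted p = 0.049). The interaction for KEAP1 loss was -0.71 for Csf1 (adjusted p = 0.208) and called no ligand, where 3.88% of rows were called lower. For the receptors no genotype effect could be measured in cells, so an interaction of theirs restates the tumor difference and is not read as a test.

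**Figure D4:**
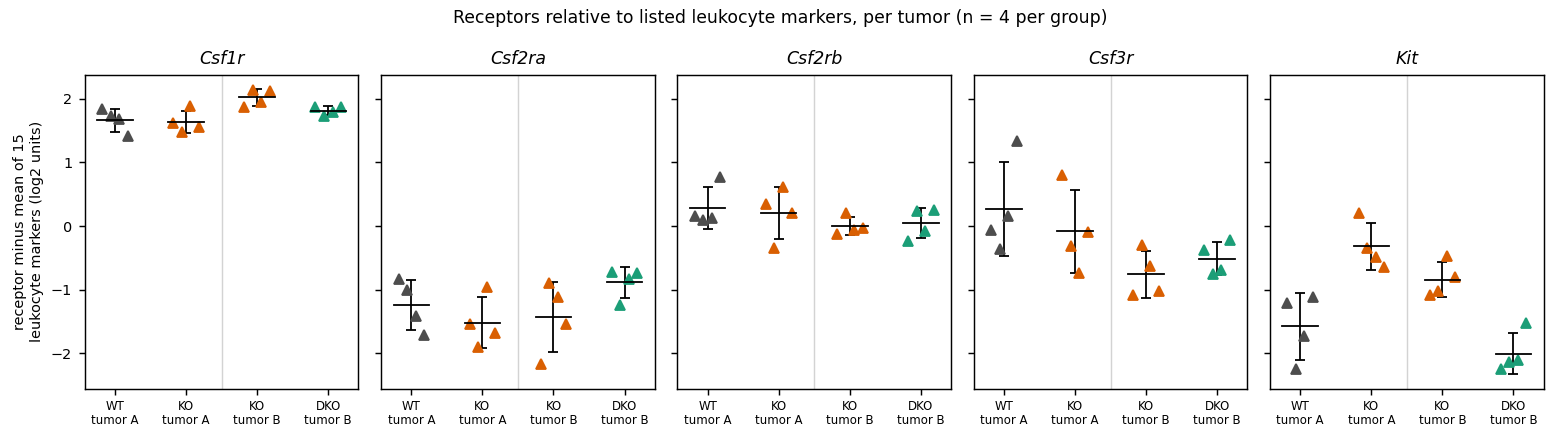
Receptor level minus the mean level of 15 leukocyte markers in each of the 16 tumors (log2 units; triangles are tumors; bars are mean and SD, n = 4 per group; the grey line parts the experiments). Csf1r, Csf2ra, Csf2rb and Csf3r overlap between the genotypes of each experiment, while Kit does not overlap, at -0.32 against -1.57 in Experiment A and -2.003 against -0.84 in Experiment B.

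To ask whether the receptors moved by more or less than leukocyte RNA as a whole, the mean of the 15 leukocyte markers was subtracted from each receptor in each tumor. Relative to that mean, 4 of the 5 receptors overlapped between the genotypes in both experiments, and Kit did not, higher in KEAP1-KO tumors both times. Csf1r minus the leukocyte mean was 1.66 ± 0.18 in WT and 1.63 ± 0.18 in KEAP1-KO tumors (n = 4, two-sided exact permutation test, p = 0.771). For Csf2ra the values were -1.24 ± 0.40 and -1.52 ± 0.40 (exact p = 0.343), for Csf2rb 0.29 ± 0.33 and 0.20 ± 0.40 (exact p = 0.857), and for Csf3r 0.27 ± 0.74 and -0.08 ± 0.65 (exact p = 0.514). In Experiment B Csf1r was at 2.02 ± 0.13 in KEAP1-KO and 1.81 ± 0.07 in DKO tumors (n = 4, exact p = 0.0571) and Csf2ra at -1.43 ± 0.55 and -0.89 ± 0.24 (exact p = 0.114). Csf2rb and Csf3r differed there by 0.04 (exact p = 0.8) and 0.25 (exact p = 0.343). A p that misses the threshold does not show that these values are equal, and 4 tumors against 4 leave room for the spread shown.

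Kit minus the leukocyte mean was -1.57 ± 0.52 in WT and -0.32 ± 0.37 in KEAP1-KO tumors (n = 4), and each KEAP1-KO tumor lay above each WT tumor (exact p = 0.0286). In Experiment B it was -0.84 ± 0.28 in KEAP1-KO and -2.003 ± 0.324 in DKO tumors, and each DKO tumor lay below each KEAP1-KO tumor (exact p = 0.0286). This is the smallest p that 4 against 4 allow, and after adjustment over the 10 tests it was 0.143 in both experiments, so 0 of 10 passed and 2 had an unadjusted p under 0.05. Against Ptprc alone Csf1r was lower in DKO than in KEAP1-KO tumors by 0.20 without overlap (n = 4, exact p = 0.0286, adjusted 0.0952), and Kit differed by 1.60 and -1.15 in the same directions, and against the macrophage markers by 0.82, with overlap, and -0.72. Against the macrophage markers Csf1r, Csf2ra and Csf3r were higher in DKO than in KEAP1-KO tumors without overlap, by 0.23, 0.98 and 0.68 (n = 4, exact p = 0.0286, adjusted 0.0714), so the sign for Csf1r turned with the reference. In Experiment A the differences against the macrophage markers, KEAP1-KO minus WT and all with overlap, were -0.47 for Csf1r, -0.72 for Csf2ra, -0.52 for Csf2rb and -0.79 for Csf3r (n = 4, exact p between 0.0857 and 0.2), while Csf1r against Ptprc differed by 0.31.

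The pathway around the receptors was followed through lists of other genes. Over all rows with a symbol, 20.6% were called in either direction in Experiment A, 13.8% in Experiment B, 24.1% between KEAP1-KO and WT cells and 14.4% between DKO and KEAP1-KO cells, the background of the counts that follow. Of 40 kinases, adaptors and brakes below the receptors 37 were tested in tumors. In Experiment A 17 were lower and 2 higher in KEAP1-KO tumors, with a median of -0.65, led by the adaptor Dok2 (-2.67, adjusted p = 5.87e-07) and including the Src-family kinase Fgr (-2.41, adjusted p = 0.00704). In DKO tumors 8 were higher and 1 lower, among them Dok2 (1.25, adjusted p = 0.00155) and Pik3r5, a regulatory subunit of PI3 kinase gamma (1.26, adjusted p = 0.0056). In cells 26 were tested, with 4 higher and 6 lower in KEAP1-KO against WT and 3 higher and 3 lower in DKO against KEAP1-KO cells, and Ptpn6, a phosphatase that restrains these receptors, fell by 2.31 (adjusted p = 3.16e-05) and by 1.45 (adjusted p = 0.00213).

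Of 17 myeloid transcription factors with a row, all tested in tumors, 9 were lower and 1 higher in KEAP1-KO tumors, and 8 higher and 1 lower in DKO tumors. Spi1, which encodes PU.1, fell by 1.72 (SE 0.15, adjusted p = 1.44e-06), and Irf5, a regulator of inflammatory macrophages, by 2.13 (SE 0.18, adjusted p = 6.35e-07). Cebpa, a factor of the granulocyte and monocyte lineage, fell by 1.67 (adjusted p = 0.000571) and rose in DKO tumors by 1.28 (adjusted p = 0.00711). In cells Spi1 and Cebpa had mean levels of 2 to 2.08, at or near 0 reads like the receptors. Of 8 tested in cells, 2 were higher and 1 lower in KEAP1-KO, and 1 higher and 3 lower in DKO cells. Cebpb, a factor of macrophages and of many other cells, rose by 0.61 (adjusted p = 0.000863) in KEAP1-KO cells and fell by 0.59 (adjusted p = 0.00185) in DKO cells, where Cebpd rose by 1.67 (adjusted p = 8.15e-05).

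Of 20 genes with a row that induce colony-stimulating factors, 19 were tested in tumors, with 6 lower and 1 higher in KEAP1-KO tumors and 5 higher and 1 lower in DKO tumors. Il1b, the inflammatory cytokine interleukin 1 beta, fell by 2.81 (SE 0.31, adjusted p = 1.21e-05) and rose by 1.78 (SE 0.31, adjusted p = 0.00137). Tnf fell by 1.82 (adjusted p = 6.71e-05) in KEAP1-KO tumors. In cells 15 were tested, with 3 higher and 1 lower in KEAP1-KO cells, a share near that of all rows with a symbol, among them the transcription factors Ets2 (1.14, adjusted p = 1.48e-07) and Jun (0.93, adjusted p = 1.8e-07), and the IL-1 receptor Il1r1 was lower (-1.14, adjusted p = 2.28e-05). In DKO cells, where Csf1 fell, 3 were higher and 1 lower: Il17ra rose by 0.72 (adjusted p = 0.000287) and Ets2 fell by 0.43 (adjusted p = 0.00091).

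Of the other growth factors and receptors 17 were tested in tumors, with 5 lower and 1 higher in KEAP1-KO tumors and 1 higher and 2 lower in DKO tumors, the latter a share near the background. Pdgfrb, the receptor of platelet-derived growth factor on mesenchymal cells, fell by 0.98 (adjusted p = 0.000359) in KEAP1-KO tumors and by 1.65 (adjusted p = 4.13e-06) in DKO against KEAP1-KO cells, the genotype change in which Csf1 also fell in cells. In cells 10 were tested, with 2 higher and 2 lower in KEAP1-KO cells and 2 lower in DKO cells. Il11ra1, the receptor of interleukin 11, fell by 1.69 in KEAP1-KO cells (adjusted p = 0.000244), and Lif, a cytokine that signals through gp130, rose by 1.32 (adjusted p = 0.00754). Flt3, a receptor of dendritic cell precursors, fell in DKO tumors by 1.53 (adjusted p = 0.0064). Trem2, a macrophage receptor that can bind IL-34, fell in KEAP1-KO tumors by 1.79 (adjusted p = 0.000131). In culture the Trem2 row went the other way, at 3.36 ± 0.24 in KEAP1-KO cells (n = 4) and at 2, no reads, in WT and DKO cells. It was not tested there. Of the 4 proteases that release ligands or receptors from the cell surface none was called in tumors, while Adam10 and Furin were called higher in KEAP1-KO cells. The Adam10 row, a single transcript, averaged 2 in WT cells, which is no reads, and 6.08 in KEAP1-KO cells (difference 4.08, SE 0.94). Such a 0 can be an estimate that went to another transcript, so it is not read as a change of the whole gene.

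The rows most like each member over the 28 libraries were found among 16564 other rows with a symbol, by Pearson's r and as a description only. Since tumors and cells differ throughout, a high r is shared by all genes of host cells. Csf1r was closest to Fcgr3, Msr1 and Adgre1 (r = 0.998 each), Csf2ra to Myo1g, Rftn1 and Myo1f (0.990 to 0.994), and Csf2rb to its neighbour Csf2rb2 (0.992), Xylt1 and Dock2. Csf3r was closest to Sorl1 (0.988), Il1b (0.987) and Srgn (0.986), and Kit to Entpd1 (0.992), Pde4b and Cxcr4 (0.990). Csf1 was closest to Fyb (0.914), Pdgfrb (0.913) and Adgre5 (0.906). Kitl was closest to Ccno (0.824), and Il34, whose row held scattered zeros, had no r above 0.628.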

How the data were processed

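RNA-seq of 28 libraries in 7 groups of 4, grouped by the sample titles, was used. The authors depleted ribosomal RNA, made strand-specific libraries, quantified reads with Salmon (named in the submitters' processing notes) against GENCODE mouse transcripts and used iDEP. By their values, the deposited numbers are log2 of a normalized count plus 4. Undoing this gave whole reads times 1 factor per library for 100% of low values (within 0.1 read, up to 30 reads). The methods speak of TPM, and the table's transform and filter are not given in the sources used here. Reads are rounded Salmon estimates. The extraction protocol in the labels names liver; titles and paper (3LL cells and tumors) were followed.

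limma 3.58.1 in R 4.3.3 (eBayes with a trend) was fitted here to the 12 cell, 16 tumor or all 28 libraries, on rows reaching 5 normalized counts in 4 or more libraries (29744, 34215 or 37246 rows), with Benjamini-Hochberg adjustment over all of them at 0.05. Differences from leukocyte markers were tested by exact permutation (two-sided). The code was tested on simulated data. Members, lists and tests were chosen with earlier results of these data known. The rule named all members, label checks and, per pathway list and comparison of adjacent genotypes, up to 4 called genes of largest difference. Names come from GENCODE vM21, whose build may differ from the authors', so coordinates are given for RefSeq promoters only. Alternatives were a pseudocount of 0.4, no filter, quantile normalization, median centring, only the groups compared, a replicate block, each library left out and, chosen after seeing the data, the sum of a gene's rows.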

Additional observations from a re-analysis of the deposited data

Results flagged for a closer look

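In groups of 4, 83 sets of member values were checked for a library far from the other 3, and chance flags about 1 set in 20. The Csf1 level of 5.60 in 1 KEAP1-KO tumor of Experiment A, replicate 1, lay below the other 3 (6.63 to 6.78). The Il34 row was at 2, which is 0 reads, in replicate 3 of the KEAP1-KO group in Experiment B, while the others were at 5.01 to 5.52. Csf2rb minus the leukocyte mean was 0.77 in WT tumor replicate 4, above the other WT tumors. In cells the values that stood apart rested on 1 or 2 reads: Csf3 at 2.55 in 1 KEAP1-KO library, and Csf1r at 2.30 in 1 KEAP1-KO and 2.34 in 1 DKO library.

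In the interaction of genotype with tumors or cells, values past the threshold were those of Csf1r (-1.91), Csf2ra (-2.26), Csf2rb (-1.56) and Csf3r (-2.38) for KEAP1 loss and of Csf2ra (1.57) and Csf3r (1.76) for NRF2 editing. These receptors had 0 to 5 reads in cells and entered the fit through the tumors alone, so the values restate the tumor differences and show no difference from an effect in cells. With a pseudocount of 0.4 only Csf2ra for KEAP1 loss and Csf3r for NRF2 editing were past it. For Csf1 the interaction with NRF2 editing was 1.24: the row that carries the symbol, a retained intron, fell by 1.42 in cells and by 0.19 in tumors, where the difference was not called. The coding Csf1 row fell by 0.54 in cells, not called, and by 1.18 in tumors (limma adjusted p = 0.0489), with an interaction of -0.63 (adjusted p = 0.617).

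A row of Il34 that carries no symbol, and so was outside the members' rows, was higher than in WT cells by 0.96 in KEAP1-KO cells and by 0.75 in DKO cells, without overlap in either case.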

How the results depend on the processing

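Of 40 single-member differences past the threshold, 30 kept their direction and call under every alternative, and none of the 659 values under alternatives changed sign, while 45 were no longer called. The calls of 4 receptors in each experiment (Csf1r, Csf2ra, Csf2rb and Csf3r) and of Csf1 in DKO cells were among the 30. So were all receptor calls of tumors against cells and some receptor interactions. Those rest on cells at or near 0 reads and passed the filter through the tumors alone. Their calls could hardly be lost, so that part of the 30 is no sign of stability. For KEAP1-KO tumors of Experiment B minus Experiment A, the 1 member called became 0 with no filter and 0 with only the groups compared, and 0 to 1 with single tumors left out. For DKO minus WT tumors the 2 members called became 1 with no filter, 1 with median centring, 3 with only the groups compared, 3 with the sum of rows, and 0 to 2 with single tumors left out. For the KEAP1 interaction the 4 members became 1 with a pseudocount of 0.4. The receptor interactions rest on cells at or near 0 reads and are no test of stability. Leaving out single libraries gave 4 to 5 in place of 6 for KEAP1-KO minus WT tumors, 5 to 7 in place of 6 for KEAP1-KO tumors minus cells, 4 to 5 for the KEAP1 interaction and 3 to 4 for the NRF2 interaction. The cause of these changes was not tested, beyond the smaller number of libraries or the rows added.

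Same-numbered libraries did not deviate together (correlations between -0.03 and 0.03), and although both tumors of a mouse were taken, no source says which libraries share a mouse, so the numbers were not taken as pairs. With the replicate block the members called were 0, 1 and 1 in the cell comparisons, 5 in Experiment A, 4 in Experiment B, 4 in the KEAP1 interaction and 2 in the NRF2 interaction. In the interactions the block joined equal numbers within cells and within 1 experiment only. No block was used for tumors of different experiments or for tumors against cells, because equal numbers there link no mice or cultures. Leaving out a tumor leaves 3 against 4, where the exact test cannot pass 0.05 (smallest p 0.0571), so those values carry no test. Depth limits Csf3, Il34, Kitl and all receptors in cells, which rest on few reads.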
